A study of Mus musculus with 10 samples.

Results

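The Slc25 genes encode the mitochondrial carrier family, and its members were taken as every row of the deposited expression table whose symbol is Slc25a followed by a number. The table lists 46 such genes among 26335 rows, and 40 of them had a mean level above 0 on the log2 CPM scale over the 10 libraries. CPM counts the reads of a gene relative to the depth of its library. These 40 genes were tested among 12306 genes above the same limit, and they are the genes described in depth here.

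Mitochondrial carriers are small proteins that span the inner mitochondrial membrane and move metabolites, nucleotides, cofactors and ions between the matrix and the intermembrane space. Most of them work by exchange, taking a substrate in for every substrate that leaves. The inner membrane is otherwise closed to these compounds, so oxidative phosphorylation, the urea cycle, fatty acid oxidation and heme and iron-sulfur cluster synthesis all depend on members of the family.

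RNA was sequenced from mSCLC-2405, a mouse small cell lung cancer cell line grown in RPMI medium with fetal bovine serum. The line came from a primary lung tumor of a mouse in which Rb1 and Trp53 were deleted by a Cre-expressing adenovirus, so every library shares that origin and all of them describe a single line. The 5 control libraries came from cells kept with the vehicle DMSO and the 5 stiripentol libraries from cells kept with the antiseizure medication stiripentol, each for 48 h. The question was how the transcripts of the carriers differed after exposure to a compound whose action on respiratory complex I the study examined.

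The control libraries held between 22375625 and 65299372 reads, control 5 being the shallow one, and the stiripentol libraries between 55015760 and 60670901. Together the 40 tested members took 0.291% to 0.304% of the reads of a library. The libraries of each group formed clusters. Controls 4 and 5 with stiripentol 1 and 2 are called set A here, and controls 1 to 3 with stiripentol 3 to 5 are called set B. The split follows the similarity of the libraries within each group, and the matching across groups follows a second numbering of the controls used by the study. The labels do not say what separates the sets, nor whether the libraries of a group were separate cultures, so the p-values measure only the spread between these libraries. Of 9 neuroendocrine markers, 6 are listed and 2 were above the limit, Ncam1 at 6.54 to 6.88 log2 CPM in control and 6.97 to 7.27 in stiripentol, and Uchl1 at -0.85 to 1.48 and -0.36 to 1.53. Insm1, Syp and Dll3 had at most 10, 20 and 3 reads in a library, and Neurod1, Chga and Calca have no row. Both fibroblast markers were above the limit, Col1a1 at 4.67 to 8.33 in control and 5.30 to 6.65 in stiripentol, and Pdgfra at 5.88 to 6.90 in control and 4.49 to 5.84 in stiripentol. Of 3 lung epithelium markers only 1 is listed, and Sftpc and Scgb1a1 have no row. The listed one, the ciliated cell factor Foxj1, lay at 2.97 to 3.94 in control and 0.47 to 2.10 in stiripentol. Yap1, a marker of another small cell state, lay at 7.17 to 7.46 in control and 5.62 to 6.91 in stiripentol. Reads remained for both deleted genes, 252 to 1443 in a library for Rb1 and 30 to 236 for Trp53, in counts per gene that do not show which exons they came from. The immune marker Ptprc had at most 3 reads in a library and the endothelial marker Pecam1 at most 44. The part of these markers in the results was not tested, and in bulk RNA fewer cells of a type and less RNA per cell cannot be told apart.

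Across the family, 4 members rose with stiripentol and 2 fell (limma on all tested genes, Benjamini-Hochberg adjusted p under 0.05). The risers were Slc25a39, Slc25a33, Slc25a28 and Slc25a51, in the order of their change, and the genes that fell were Slc25a13 and Slc25a20. Among all 12306 genes, 13.6% were called higher and 14.1% lower, so the share of members called was below the share of all genes in both directions. The median log2 change of the 40 members was -0.06, which was also the median of all genes tested, and the median of the absolute changes was 0.23 for the members and 0.41 for all genes. In 5 members every stiripentol library lay above every control library, against 13.0% of all genes, and in 2 members every stiripentol library lay below, against 14.3%. The 5 were the 4 called risers and Slc25a27, and the 2 were Slc25a20 and Slc25a4.

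**Figure D1:**
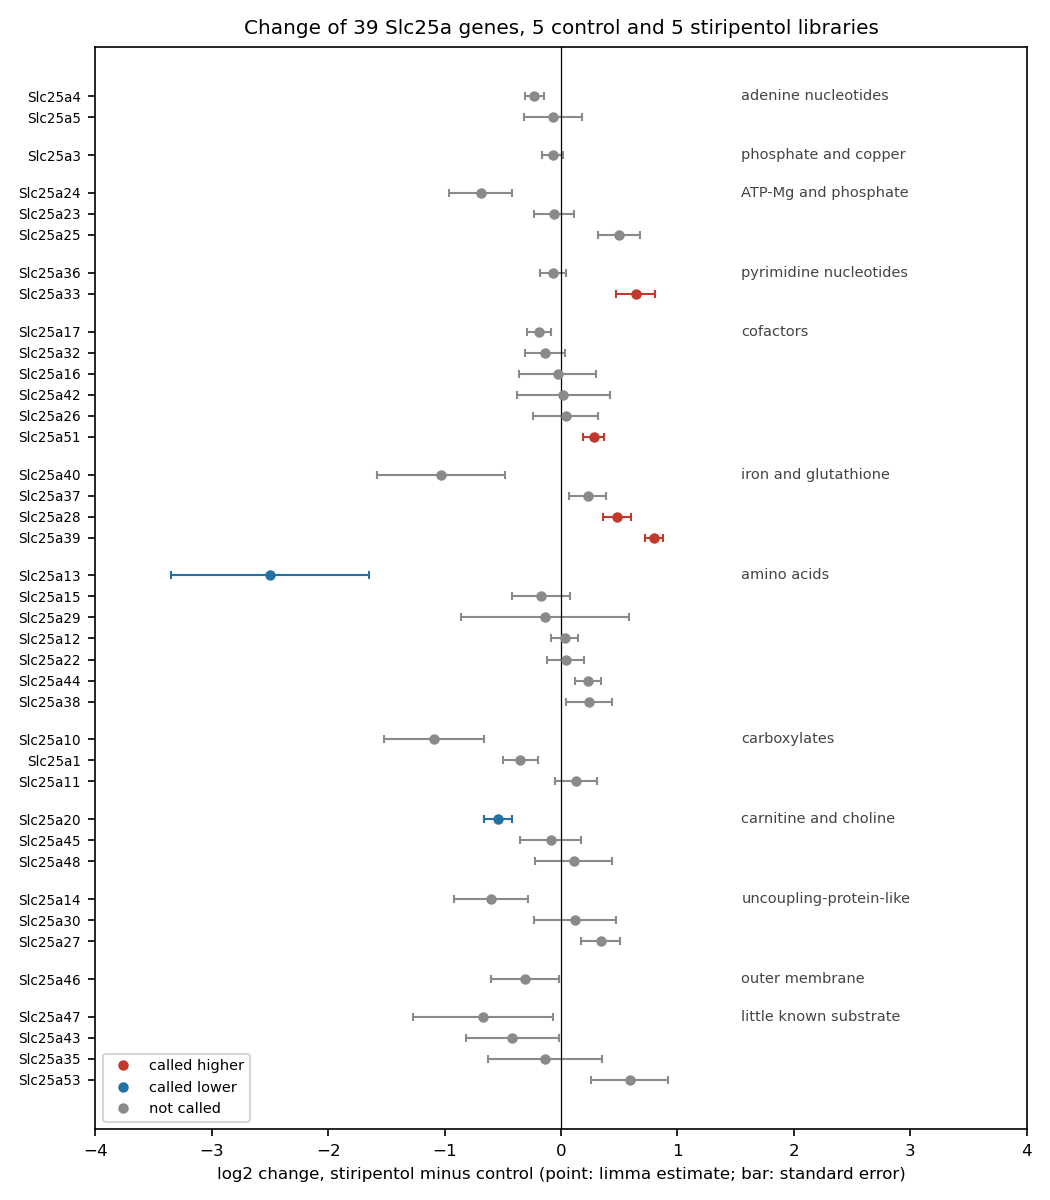
Log2 change of 39 of the 40 tested Slc25a genes, stiripentol minus control, grouped by the substrate of the carrier. Points are limma estimates from 5 control and 5 stiripentol libraries and bars are standard errors; red marks the 4 genes called higher and blue the 2 called lower, with Slc25a13 at -2.50 the farthest from 0 and with the widest error.

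The carriers of glutathione and iron held 2 of the 4 rises. SLC25A39 brings glutathione into the matrix, SLC25A40 is its close paralog, and SLC25A28 (mitoferrin 2) and SLC25A37 (mitoferrin 1) bring in iron. Slc25a39 is on the minus strand of GRCm38 chromosome 11 (gene chr11:102402985-102407946). Its level was 8.13, 8.20, 8.22, 8.11 and 8.04 log2 CPM in controls 1 to 5 and 8.86, 8.89, 8.98, 9.03 and 8.92 in stiripentol 1 to 5. The 2 groups were far apart compared with the scatter within each, and the libraries of both sets lay close together. The mean was 8.14 ± 0.07 in control and 8.94 ± 0.07 in stiripentol (SD, n = 5 each), a change of 0.80 on the log2 scale (SE 0.08, 1.74-fold, limma adjusted p = 0.000181). The exact two-sided permutation p was 0.00794, the smallest that 5 libraries against 5 can give. On the deposited scale set A changed by 0.80 and set B by 0.79, each called on its own. After median-of-ratios scaling the rise was 1.08 in set A and 0.72 in set B, and this difference of 0.36 was called (limma interaction adjusted p = 0.011).

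Slc25a40, the paralog, was not called over all libraries. Its level was 5.00, 5.10, 5.43, 4.46 and 4.58 log2 CPM in controls 1 to 5 and 2.60, 2.26, 4.84, 4.79 and 4.95 in stiripentol 1 to 5. The low values belonged to the 2 stiripentol libraries of set A, while those of set B overlapped the controls. The change was -1.03 (SE 0.55, limma adjusted p = 0.176). Within the sets it was -2.09 in A (adjusted p = 7.73e-07) and -0.32 in B (adjusted p = 0.041), and the difference between the sets was itself called (-1.77, limma interaction adjusted p = 2.14e-05). The log2 ratio of Slc25a39 to Slc25a40 within a library, which does not depend on the scaling factor of the library, was 3.23 ± 0.34 in control and 5.05 ± 1.29 in stiripentol, with no overlap of the groups.

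Slc25a28 (GRCm38 chr19:43663801-43674881, minus strand) was at 4.88, 4.88, 5.02, 4.86 and 4.71 log2 CPM in controls 1 to 5 and at 5.43, 5.61, 5.16, 5.28 and 5.30 in stiripentol 1 to 5. All stiripentol libraries lay above all controls, those of set A the highest. The change was 0.48 (SE 0.12, 1.40-fold, limma adjusted p = 0.0145), with 0.73 in set A and 0.32 in set B, a difference of 0.42 between the sets (limma interaction adjusted p = 0.0184). For its paralog Slc25a37 the control values were 5.79, 5.95, 6.18, 6.51 and 6.48 and the stiripentol values 6.29, 6.71, 6.25, 6.31 and 6.49. The groups overlapped, since the controls of set A already lay near the stiripentol libraries, and the change of 0.23 was not called (SE 0.16, limma adjusted p = 0.301). The ratio of Slc25a28 to Slc25a37 accordingly differed by 0.25 on the log2 scale with overlapping groups, 0.73 in set A and -0.06 in set B.

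**Figure D2:**
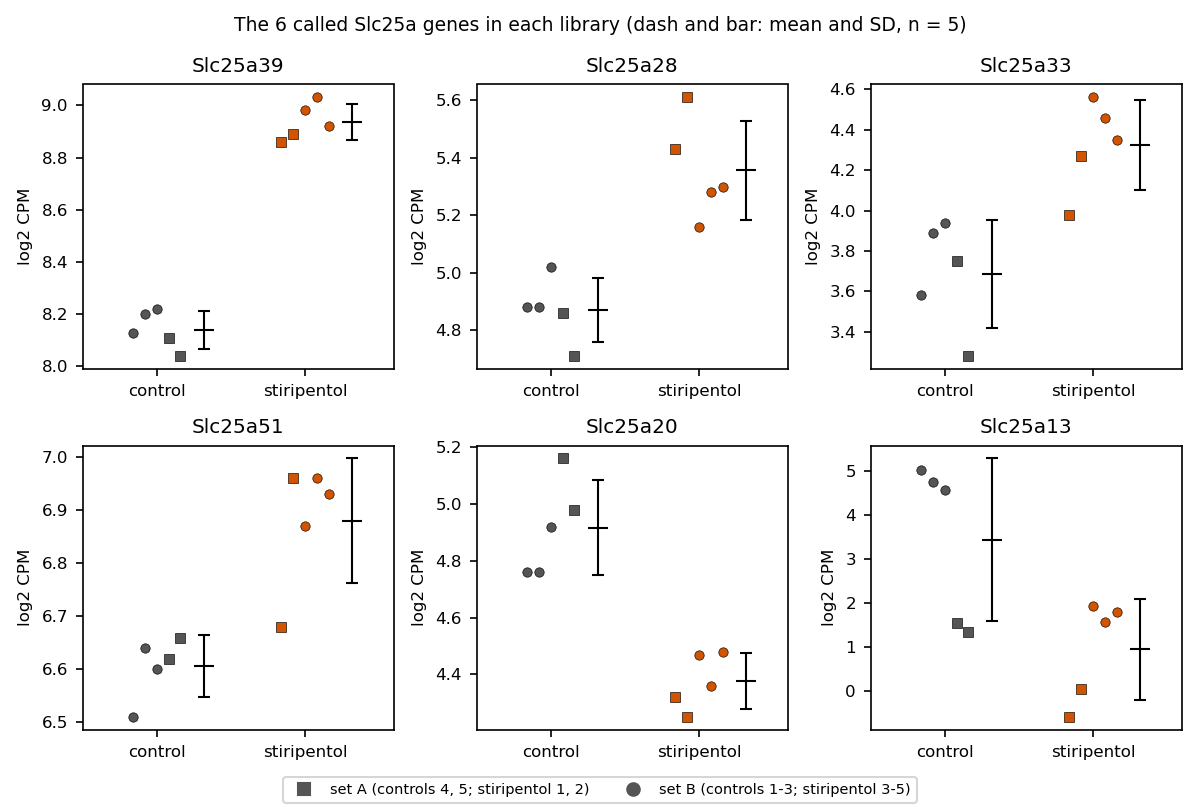
Level of the 6 called Slc25a genes in each library, in log2 CPM, with set A as squares, set B as circles, and the mean and SD of the 5 libraries of a group beside them. The groups are separate for every gene but Slc25a13, where the 2 controls of set A, at 1.54 and 1.34, lie among the stiripentol libraries.

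Promoter letters are shown for the called members that the RefSeq promoter table holds. It gives a window for 35 of the 46 members and 31 of the 40 tested, and Slc25a51 is among the rest. Each line below is the sequence of the gene's own strand, 5′ to 3′, before the first RefSeq start listed for it in GRCm38.p6. Bases that GENCODE M21 counts as exon are left out. For Slc25a39 this RefSeq start lies within the gene as GENCODE M21 places it (chr11:102402985-102407946). Its line is thus sequence inside that gene and not before its GENCODE start. Capitals mark an ETS motif (CCGGAAGT) in Slc25a20 and an E-box (CACGTG) in Slc25a13, and the other windows hold none of the motifs searched. The windows are chr11:102407545-102407767 (minus strand), chr4:149774278-149774517 (minus), chr19:43674882-43675131 (minus), chr9:108661886-108662087 (plus) and chr6:6217174-6217423 (minus).
Slc25a39: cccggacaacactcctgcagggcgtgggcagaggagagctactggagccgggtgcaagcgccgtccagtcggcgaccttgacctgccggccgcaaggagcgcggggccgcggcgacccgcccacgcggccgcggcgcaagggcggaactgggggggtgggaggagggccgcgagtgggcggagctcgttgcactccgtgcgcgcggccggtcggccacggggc
Slc25a33: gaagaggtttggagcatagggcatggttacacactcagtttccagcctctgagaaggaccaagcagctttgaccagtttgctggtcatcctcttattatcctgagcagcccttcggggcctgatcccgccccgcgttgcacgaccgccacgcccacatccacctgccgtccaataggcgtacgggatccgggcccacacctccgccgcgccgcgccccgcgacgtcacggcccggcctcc
Slc25a28: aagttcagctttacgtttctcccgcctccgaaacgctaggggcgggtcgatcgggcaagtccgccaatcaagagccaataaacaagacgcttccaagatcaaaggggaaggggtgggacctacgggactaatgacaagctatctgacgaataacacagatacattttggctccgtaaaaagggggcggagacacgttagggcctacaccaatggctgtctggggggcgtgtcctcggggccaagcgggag
Slc25a20: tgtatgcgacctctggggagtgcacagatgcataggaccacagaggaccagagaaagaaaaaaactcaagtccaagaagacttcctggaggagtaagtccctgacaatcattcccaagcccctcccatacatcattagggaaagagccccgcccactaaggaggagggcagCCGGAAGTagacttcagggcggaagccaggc
Slc25a13: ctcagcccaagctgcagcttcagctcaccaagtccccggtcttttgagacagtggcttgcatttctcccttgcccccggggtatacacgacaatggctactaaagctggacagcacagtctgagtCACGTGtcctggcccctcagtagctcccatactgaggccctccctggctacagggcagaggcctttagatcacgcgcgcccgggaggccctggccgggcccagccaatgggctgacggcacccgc

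The 4 motifs were searched on both strands over the whole 250 bases before each listed start, exon bases included. A gene with several listed starts was counted as holding a motif if any of its windows held it. The E-box, which MYC and USF proteins can bind, was in 6 of the 31 tested members with a window (Slc25a1, Slc25a13, Slc25a14, Slc25a15, Slc25a33 and Slc25a36), in 6.86% of all genes and in 10.0% of the tested genes. The ETS motif was in 1 member, against 3.23% of all genes and 7.15% of tested genes. The cyclic AMP response element TGACGTCA was in Slc25a25 and Slc25a36, against 1.77% and 3.17%. The palindromic NRF1 motif, of a factor that drives many nuclear genes of mitochondria, was in 0 members, against 0.877% and 1.99%. Among the called members the E-box was thus in Slc25a13, which fell, and Slc25a33, which rose. The line of Slc25a33 above does not hold it in full. Whether it reaches into the exon bases left out there or lies before another listed start is not shown here.

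Pyrimidine nucleotides enter the matrix through SLC25A33 and SLC25A36, which supply mitochondrial DNA and RNA synthesis. Slc25a33 (GRCm38 chr4:149744036-149774277, minus strand) was at 3.58, 3.89, 3.94, 3.75 and 3.28 log2 CPM in controls 1 to 5 and at 3.98, 4.27, 4.56, 4.46 and 4.35 in stiripentol 1 to 5. Control 3 and stiripentol 1 nearly touched, but the groups did not overlap. The change was 0.64 (SE 0.17, 1.56-fold, limma adjusted p = 0.0213), with 0.61 in set A and 0.66 in set B. Without control 1 the adjusted p rose to 0.0508 at a change of 0.61. Exons of Slc25a33 share 281 bases with Gm13068 on the other strand, whose reads came to 0.839% of those of Slc25a33. Slc25a36 was at 6.02, 6.12, 6.04, 6.25 and 6.15 in controls 1 to 5 and at 6.06, 6.32, 5.86, 5.92 and 6.09 in stiripentol 1 to 5, and its groups overlapped, with a change of -0.07 (SE 0.11, limma adjusted p = 0.667). The log2 ratio of Slc25a33 to Slc25a36 was -2.43 ± 0.30 in control and -1.73 ± 0.34 in stiripentol with no overlap, and it differed by 0.62 in set A and 0.76 in set B.

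Among the carriers of cofactors, Slc25a51, which imports NAD, was called higher, and those described after it were not called. Slc25a51 (GRCm38 chr4:45395923-45408766, minus strand) was at 6.51, 6.64, 6.60, 6.62 and 6.66 log2 CPM in controls 1 to 5 and at 6.68, 6.96, 6.87, 6.96 and 6.93 in stiripentol 1 to 5. The groups did not overlap, although control 5 and stiripentol 1 lay within a few hundredths of each other. The change was 0.28 (SE 0.09, 1.21-fold, limma adjusted p = 0.0412). It was 0.18 in set A, which was not called (adjusted p = 0.179), and 0.34 in set B (adjusted p = 0.00189). It was called only by a small margin, since the adjusted p rose to between 0.0532 and 0.0936 when any of controls 1 to 5 or stiripentol 2 to 5 was left out, with the change between 0.25 and 0.29. Slc25a42, a carrier of coenzyme A, had an estimate near 0 (0.02) that joined a fall of 1.18 in set A to a rise of 0.82 in set B. Slc25a16 likewise changed by -0.65 in set A and 0.39 in set B. Further estimates were -0.19 for Slc25a17, a carrier of peroxisomes, -0.14 for the folate and FAD carrier Slc25a32 and 0.04 for the S-adenosylmethionine carrier Slc25a26. Exons of Slc25a26 overlap Lrig1 on the other strand, which had more reads than Slc25a26 itself.

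The amino acid carriers held the largest change of the family, with an adjusted p just under the threshold. SLC25A12 (aralar) and SLC25A13 (citrin) exchange aspartate for glutamate and are part of the malate-aspartate shuttle, which carries the reducing equivalents of cytosolic NADH into the matrix. Slc25a13 (GRCm38 chr6:6041218-6217173, minus strand) was at 5.04, 4.76, 4.57, 1.54 and 1.34 log2 CPM in controls 1 to 5 and at -0.59, 0.05, 1.94, 1.58 and 1.79 in stiripentol 1 to 5. The controls of set B were high, those of set A were far lower and lay just below the stiripentol libraries of set B, and the stiripentol libraries of set A were the lowest. The change was -2.50 (SE 0.85, 0.177 times the control level, limma adjusted p = 0.0496), and the exact two-sided permutation p was 0.0794. Within the sets it was called in both, at -1.71 in set A (adjusted p = 0.000294) and -3.02 in set B (adjusted p = 5.97e-06), and the difference of 1.31 was called as well (limma interaction adjusted p = 0.0026).

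The call of Slc25a13 depended on single libraries. It was kept without control 4 or control 5, at adjusted p of 0.0271 and 0.0231. It was lost without controls 1, 2 or 3, at adjusted p of 0.114, 0.112 and 0.111, and without stiripentol 1 to 5, at 0.107, 0.108, 0.0526, 0.0617 and 0.0534. With all of controls 1 to 3 left out the change was -0.49 (limma adjusted p = 0.678), with the stiripentol libraries of both sets then compared with the controls of set A.

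Slc25a12, the paralog, was not called over all libraries. It was at 5.95, 5.99, 6.03, 5.77 and 5.71 log2 CPM in controls 1 to 5 and at 6.11, 6.15, 5.79, 5.81 and 5.77 in stiripentol 1 to 5, with overlapping groups and a change of 0.03 (SE 0.12, limma adjusted p = 0.857). In set A it was higher by 0.38 and in set B lower by 0.20, each called. The log2 ratio of Slc25a13 to Slc25a12 was -2.44 ± 1.71 in control and -4.97 ± 1.33 in stiripentol. The groups overlapped over all libraries but not within a set, where the ratio differed by -2.09 in A and -2.82 in B.

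None of the other 5 amino acid carriers tested was called. The glutamate carrier Slc25a22 was at 4.11, 4.18, 3.95, 3.66 and 3.72 log2 CPM in controls 1 to 5 and at 3.63, 3.99, 3.94, 4.08 and 4.19 in stiripentol 1 to 5, with overlapping groups and a change of 0.04 (SE 0.16), while its paralog Slc25a18 had at most 2 reads in a library. The estimates were 0.24 for Slc25a38, which carries glycine for heme synthesis, 0.23 for Slc25a44, which carries branched-chain amino acids, -0.17 for the ornithine carrier Slc25a15 and -0.14 for the basic amino acid carrier Slc25a29. Slc25a38 changed by 0.71 in set A, which was called, and by -0.07 in set B, which was not. Slc25a29 separated the sets and not the treatments, at 1.56 to 2.00 in the 6 libraries of set B and -0.81 to -0.20 in the 4 of set A.

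Fatty acids reach the matrix as acylcarnitines through SLC25A20, the carnitine-acylcarnitine translocase. Slc25a20 (GRCm38 chr9:108662088-108684641, plus strand) was at 4.76, 4.76, 4.92, 5.16 and 4.98 log2 CPM in controls 1 to 5 and at 4.32, 4.25, 4.47, 4.36 and 4.48 in stiripentol 1 to 5. Every stiripentol library lay below every control. The change was -0.54 (SE 0.12, 0.686 times the control level, limma adjusted p = 0.00965), and the exact two-sided permutation p was 0.00794. It was -0.79 in set A and -0.38 in set B, each called, and the difference of -0.40 between the sets was called on the deposited scale (limma interaction adjusted p = 0.0211) but not after median-of-ratios scaling (adjusted p = 0.78). The choline carrier Slc25a48 and the related Slc25a45 were not called, with estimates of 0.11 and -0.09. Slc25a48 fell by 1.11 in set A and rose by 0.92 in set B.

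The carriers that exchange ATP for ADP, and those that bring in phosphate, were not called. Slc25a4 (the nucleotide translocase ANT1) was at 9.08, 8.94, 8.94, 9.13 and 8.96 log2 CPM in controls 1 to 5 and at 8.80, 8.70, 8.84, 8.81 and 8.73 in stiripentol 1 to 5. All stiripentol libraries lay below the controls by a small step, and the change of -0.23 missed the threshold (SE 0.08, limma adjusted p = 0.0546, exact two-sided permutation p = 0.00794). Slc25a5 (ANT2) was at 7.93, 7.73, 7.40, 6.75 and 6.55 in controls 1 to 5 and at 7.46, 7.25, 7.16, 7.06 and 7.09 in stiripentol 1 to 5. The stiripentol libraries lay above the controls of set A, and all of them but stiripentol 1 lay below those of set B. Its change was 0.70 in set A and -0.58 in set B, both called, and -0.07 over all libraries (SE 0.25, limma adjusted p = 0.850). The log2 ratio of Slc25a4 to Slc25a5 differed by -0.99 in set A and by 0.39 in set B. The phosphate and copper carrier Slc25a3 changed by -0.07 (SE 0.09, limma adjusted p = 0.554).

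**Figure D3:**
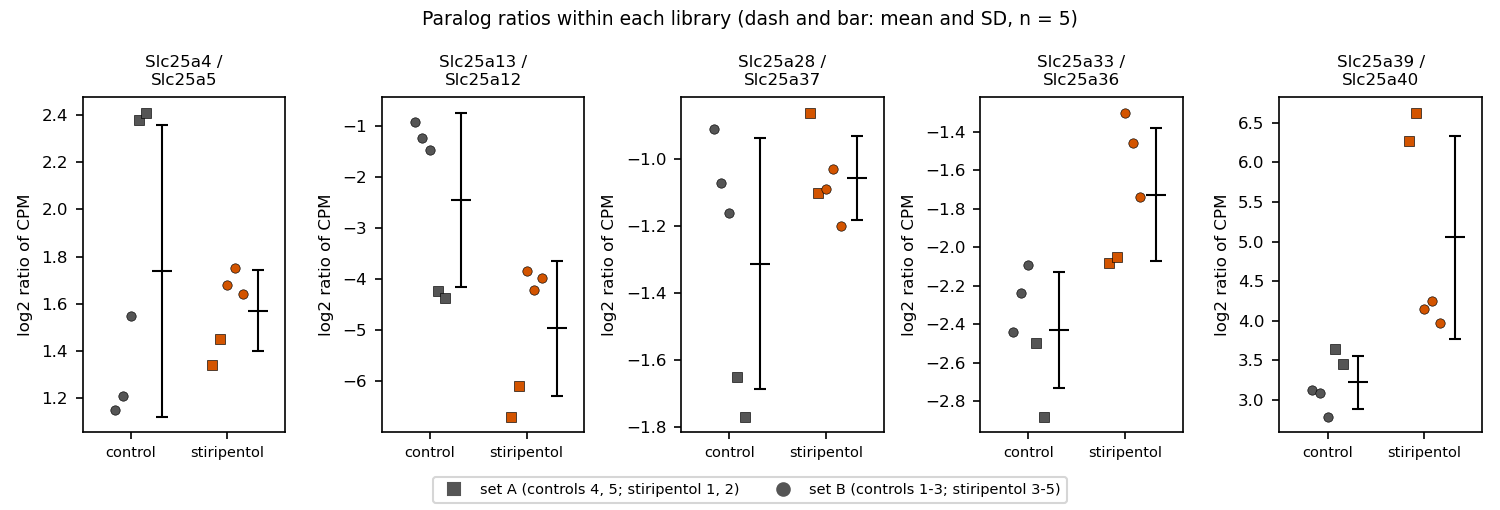
Log2 ratio of CPM between near paralogs within each library, for control and stiripentol, with set A as squares, set B as circles, and the mean and SD of 5 libraries beside them. The groups are separate for Slc25a33 over Slc25a36 and Slc25a39 over Slc25a40, and overlap for the other 3 ratios.

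The calcium-regulated carriers of ATP-Mg and phosphate differed in sign among themselves without a call. Slc25a24 had an estimate of -0.69 (SE 0.27, limma adjusted p = 0.0789), Slc25a23 of -0.06, and Slc25a25 of 0.50 (SE 0.18, limma adjusted p = 0.0646). Slc25a24 fell in both sets, by 1.06 in A and 0.44 in B. Slc25a25 rose by 0.97 in set A (adjusted p = 2.27e-05) and changed by 0.19 in set B (adjusted p = 0.345), where control 3 at 5.38 lay above the stiripentol libraries. Exons of Slc25a25 share 379 bases with Naif1 on the other strand, whose reads came to 25.0% of its own.

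Of the carboxylate carriers, none was called over all libraries and Slc25a10 had the largest estimate. SLC25A10 exchanges malate or succinate for phosphate, SLC25A1 exports citrate, and SLC25A11 is the oxoglutarate-malate carrier of the malate-aspartate shuttle. Slc25a10 lay at 5.12 to 5.93 log2 CPM in control, and at 3.30 and 3.29 in stiripentol 1 and 2 but 5.18 to 5.25 in stiripentol 3 to 5. Its change was -1.09 (SE 0.43, limma adjusted p = 0.0847), and it was called lower in both sets, at -1.92 in A and -0.53 in B. Slc25a1 had an estimate of -0.35 (SE 0.15, limma adjusted p = 0.0983), with -0.48 in set A and -0.27 in set B, each called on the deposited scale. Slc25a11, whose exons overlap Rnf167 on the other strand, changed by -0.47 in set A and 0.53 in set B.

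The uncoupling-protein-like carriers Slc25a14, Slc25a27 and Slc25a30 were not called, with estimates of -0.60, 0.34 and 0.12. Slc25a14 lay at 1.03 and 0.99 log2 CPM in stiripentol 1 and 2, below all other libraries. Slc25a27 had no overlap between its groups (exact two-sided permutation p = 0.00794), but its limma adjusted p was 0.146 at this level of 111 to 390 reads in a library. Slc25a30 followed the sets, at 8.36 to 8.64 in the libraries of set A and 7.19 to 7.72 in those of set B. The outer membrane member Slc25a46, which acts on mitochondrial shape, changed by -0.31 over all libraries, by -1.20 in set A and by 0.29 in set B. Among members whose substrate is little known, Slc25a53 had an estimate of 0.59 (SE 0.33, limma adjusted p = 0.192) and rose in both sets, by 0.64 and 0.56. Slc25a35, Slc25a43 and Slc25a47 had estimates of -0.14, -0.42 and -0.67. Exons of Slc25a35 share 1151 bases with Rangrf on the other strand, which had 2917 reads over all libraries against 843 for Slc25a35. The tested members nearest the limit were Slc25a35, Slc25a43 and Slc25a47, with means of 0.40, 0.30 and 0.17 log2 CPM, and the first below it were Slc25a34, Slc25a2 and Slc25a41, at -2.17, -3.06 and -3.47.

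The sets differed in what stiripentol did to the family. For 23 of the 40 members the change in set A differed from that in set B, 7 higher and 16 lower in set A (limma interaction, adjusted p under 0.05), against 63.3% of all genes. For 17 members the estimates of the sets had opposite signs, against 37.0% of all genes. In set A alone 9 members were called higher and 19 lower, against 25.7% and 46.5% of all genes. In set B alone 14 were called higher and 11 lower, against 37.7% and 27.0%. These shares lay near those of all genes, and the libraries within a set may not be independent of each other. The sets were also formed from these same libraries, so the p-values within a set and of the interaction may be too small.

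The median change of all genes was -0.25 in set A and 0.08 in set B, and that of the members -0.27 and 0.08, so the shift between the sets was as large in all genes as in the members. Median-of-ratios scaling, which sets the typical gene to no change, moved the median of all genes to 0.02 in set A and 0.00 in set B. With it 16 members were called higher and 13 lower in set A, against 37.5% and 37.0% of all genes. In set B 14 were called higher and 12 lower, against 32.0% and 32.2%. The change differed between the sets in 23 members under this scaling too, against 63.5% of all genes, but only 18 of these were among the 23 of the deposited scale. Slc25a3 and Slc25a36 had estimates of 0.11 and -0.01 in set A as deposited and 0.38 and 0.26, both called, after that scaling.

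Called in the same direction in both sets were 4 members that rose (Slc25a28, Slc25a33, Slc25a39 and Slc25a53) and 7 that fell (Slc25a1, Slc25a4, Slc25a10, Slc25a13, Slc25a20, Slc25a24 and Slc25a40), against 15.3% and 18.8% of all genes. Another 7 were called in opposite directions (Slc25a5, Slc25a11, Slc25a12, Slc25a16, Slc25a42, Slc25a46 and Slc25a48), against 13.7%. After median-of-ratios scaling Slc25a1 and Slc25a4 were no longer called in set A, at -0.20 and -0.01, and 8 members rose and 5 fell in both sets, against 17.9% and 18.2% of all genes. On the deposited scale the rises of Slc25a39, Slc25a33 and Slc25a53 in the sets lay within 0.1 of each other, which did not hold after that scaling for any of the 3.

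**Figure D4:**
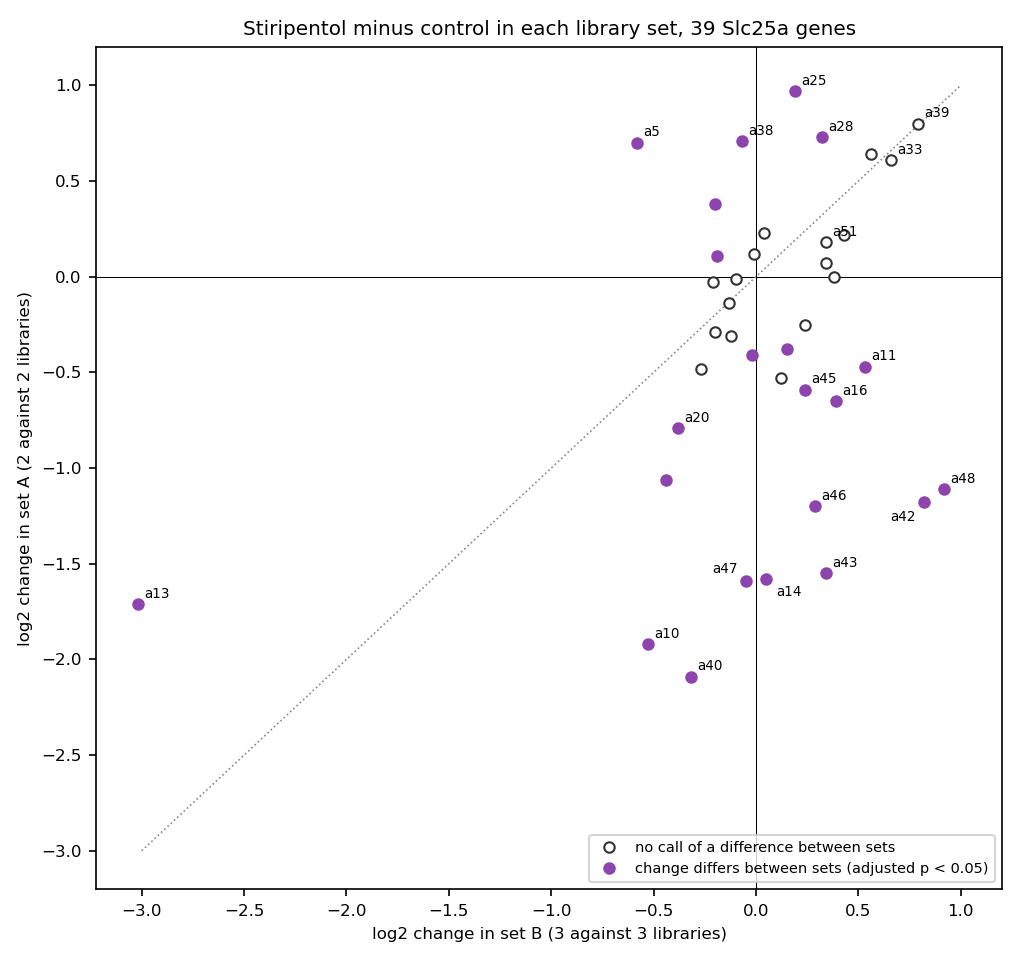
Log2 change, stiripentol minus control, of 39 of the 40 tested Slc25a genes in set A (vertical axis, 2 against 2 libraries) and set B (horizontal axis, 3 against 3), with the dotted line marking equal change and labels without the prefix Slc25. Filled points are genes whose change differed between the sets; on this deposited scale Slc25a39 and Slc25a33 lie near the dotted line, and Slc25a40, Slc25a10 and Slc25a14 far below it.

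The controls alone split by set. The sets were formed from the similarity of these same libraries, so this split is partly built in. In 14 members both controls of set A lay above all 3 of set B, against 36.8% of all genes, and in 17 they lay below, against 34.1%. In 5 members the means differed by more than 1 on the log2 scale, against 15.8% of all genes. The largest differences were -3.35 for Slc25a13 and -2.30 for Slc25a29, set A minus set B.

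Other transporters of the mitochondrial membranes were read from the same fit. Of 34 rows listed 32 were tested, and 7 were called higher and 6 lower, against 13.6% and 14.1% of all genes. The difference from the Slc25a genes in the share called was not tested. The calcium uniporter pore Mcu rose by 0.41 on the log2 scale (limma adjusted p = 0.00902), and its paralog Mcub, which has 2 rows, by 0.91 in the called row. That row, with 50 to 222 reads in a library, was not called in set A (0.37, limma adjusted p = 0.177). The other Mcub row, with 131 to 1129 reads, was not called over all libraries (0.77, limma adjusted p = 0.149). Further rises were 1.23 for Letm2, 1.15 for Ghitm, 0.78 for the outer membrane channel Vdac3, 0.65 for Letmd1 and 0.47 for the pyruvate carrier subunit Mpc2. The genes that fell were Abcb10 and Mtch1, each by 0.86, Abcb8 by 0.66, the serine transporter relative Sfxn3 by 0.61, the zinc transporter Slc30a9 by 0.41 and Ucp2 by 0.40. Ucp2 and Mtch1 belong to the carrier family under other symbols.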

How the data were processed

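The values deposited by the authors are log2 CPM, with a prior count added before the logarithm. The lowest value, that of a gene without reads, was -4.82 in controls 1 to 3. It was -4.74 in controls 4 and 5 and in all stiripentol libraries. The prior was thus a smaller share of library size in controls 1 to 3, which are all the controls of set B. The part of this in the results was not tested. The authors also deposited group means, a p-value, a q-value, a ratio and its log2, which are their own comparison and were not used. The submitters' processing notes name mm10, and the aligner, annotation and counting strand are not given in the sources used here, so reads of genes that overlap on opposite strands cannot be told apart. The study's methods and the sample records name different library kits, a 3′ kit and a total RNA kit.

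The deposited log2 values were fitted with limma 3.58.1 in R 4.3.3 (lmFit, eBayes with a trend, no covariate) over the 12306 genes with a mean above 0, with Benjamini-Hochberg adjustment over all of them. Whole reads were recovered from 100% of values (tolerance 0.05 reads) and gave the library totals. Depth describes counting error only. Fold changes are on the log2 scale with the authors' prior. Exact permutation tests ran over 252 arrangements. The interaction of group and library set was fitted in limma. Positions and overlaps came from GENCODE M21 on GRCm38, and near-identical copies from blastn 2.17.0+ (95% identity over 300 bases). Apart from genes overlapping at the same locus, these copies held under 0.4% of a member's reads. Python 3.11.15 with numpy 2.4.6, pandas 2.3.3 and scipy 1.17.1 was used for the tables, and the fit was tested on simulated data.

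The members and lists were chosen with earlier results of these data known. All members above the limit are described by role, with each library's value for called members and near paralogs. The values of 1 member and 1 marker are not reported here. The genes whose values are given by range were named as uncalled members. Alternatives were other scalings, filters and pseudocounts, limma voom on recovered reads, robust eBayes, a replicate block, a set term, each set alone, leaving out libraries, and a minimum change. Chosen after seeing the data were the block in the second numbering, and the sets alone and the interaction after median-of-ratios scaling.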

Additional observations from a re-analysis of the deposited data

Results flagged for a closer look

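The change with stiripentol differed between the library sets in 23 members by a limma interaction term, against 63.3% of all genes. The values of 22 of these members are log2 changes, set A minus set B. They were positive for Slc25a5 (1.28), Slc25a13 (1.31), Slc25a25 (0.79), Slc25a38 (0.78), Slc25a12 (0.59), Slc25a28 (0.42) and Slc25a3 (0.30). Those below -1 were Slc25a48 (-2.03), Slc25a42 (-2.01), Slc25a43 (-1.89), Slc25a40 (-1.77), Slc25a14 (-1.63), Slc25a47 (-1.54), Slc25a46 (-1.49), Slc25a10 (-1.39) and Slc25a16 (-1.04). The rest were Slc25a11 (-1.0), Slc25a45 (-0.83), Slc25a24 (-0.61), Slc25a23 (-0.53), Slc25a20 (-0.40) and Slc25a15 (-0.39). After median-of-ratios scaling the difference was not called in Slc25a45, Slc25a24, Slc25a23, Slc25a20 and Slc25a15. The median of this difference was -0.24 over the 40 members and -0.33 over all genes.

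Single libraries stood apart from the other 4 of their group in 3 of 82 groups of values examined (the 40 tested members and the library total, in control and in stiripentol), where chance gives about 4.1 at 1 in 20. They were control 3 for Slc25a25 at 5.38 log2 CPM, stiripentol 1 for Slc25a44 at 5.74 log2 CPM, and control 5 for its total of 22375625 reads.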

How the results depend on the processing

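The counts called higher, called lower and called among the other transporters, in this order, were 4, 2 and 13. They became 7, 8 and 21 with a term for the library set, 9, 19 and 20 in set A alone, 14, 11 and 27 in set B alone, 16, 13 and 24 in set A after median-of-ratios scaling, and 14, 12 and 26 in set B after it. The calls over all genes moved as well, from 13.6% higher and 14.1% lower to 23.6% and 27.1% with the set term, 25.7% and 46.5% in set A, 37.7% and 27.0% in set B, and after median-of-ratios scaling 37.5% and 37.0% in set A and 32.0% and 32.2% in set B. With 1 mean per group and set limma called 0, 0 and 0, and 0 of all 12306 genes, with 1116 of them, 1 member (Slc25a39) and 3 other transporters at an unadjusted p under 0.05. Quantile normalization called 8 members higher, against 16.9% of all genes. Without a filter 1 member was lower and 8 other transporters were called, against 6.47% of all genes higher and 6.63% lower. With a limit of 3, with limma voom and with robust eBayes 1 member was lower, against 14.1%, 15.1% and 13.8% of all genes. The limit of 3 left Slc25a13, with a mean of 2.2 log2 CPM, untested. With limma voom and robust eBayes it was tested and not called (limma adjusted p = 0.0526 and 0.0528). A minimum change of 0.58 left 2 higher (Slc25a39 and Slc25a33) and 1 lower (Slc25a13). The share of all genes under this minimum is not given here, so these counts have no background to be read against. Without controls 1 to 3, 5 members were lower, against 9.87% of all genes, and 5 other transporters were called. Leaving out 1 library at a time gave 2 to 5 higher and 1 to 2 lower, against 9.90% to 13.9% and 9.52% to 14.6% of all genes. It also gave 7 to 12 other transporters, and 19 to 24 members that differed between the sets. In the same interaction fits the change was called higher in set A for 15.5% to 21.5% of all genes and lower for 39.8% to 49.5%. The cause of these changes was not tested.

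Same-numbered libraries did not deviate together (mean correlation -0.152), so the numbers do not pair them. A replicate block on these numbers called 2 members higher, 1 lower and 7 other transporters (8.29% and 8.63% of all genes), and the block in the second numbering called 5 higher, 6 lower and 16 other transporters (16.7% and 17.9% of all genes).

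Slc25a39 and Slc25a20 kept their call in 28 of 29 alternatives, Slc25a28 and Slc25a33 in 27, Slc25a51 in 15, and Slc25a13 in 13 of 28. Among 972 values of the 34 uncalled members under the alternatives, 853 stayed uncalled, 103 were called with the same sign and 16, in 9 members, were called with the opposite sign. In set A these were Slc25a5 (0.70, and 0.98 after median-of-ratios scaling), Slc25a42 (-1.18 and -0.91), Slc25a48 (-1.11 and -0.83), Slc25a11 (-0.47), and after that scaling only Slc25a3 (0.38) and Slc25a36 (0.26). In set B they were Slc25a16 (0.39 and 0.31), Slc25a46 (0.29 and 0.21) and Slc25a12 (-0.20 and -0.28). Without controls 1 to 3 it was Slc25a5 (0.55). Depth limits the members near the limit, which had as few as 14 reads in a library.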

Other observations

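The 6 members at or below the limit were listed but not tested. Slc25a34 was at -0.05 and -0.33 log2 CPM in controls 4 and 5, at -4.30, -4.24 and -1.73 in controls 1 to 3, and between -3.23 and -1.30 in stiripentol, with at most 59 reads in a library. Slc25a41 had 0 to 15 reads in a library, Slc25a2 had 2 to 9, Slc25a18 and Slc25a54 had 0 to 2, and Slc25a21 had 0 to 1. Slc25a31, the germ cell nucleotide translocase, has no row.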
